A study of Mus musculus with 3 samples.

Results

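The genes described here are 10 that mark T cells and cytotoxic lymphocytes: Cd3e, Cd3d, Cd3g, Cd8a, Trac, Trbc2, Ccl5, Gzma, Gzmb and Nkg7. They were taken by symbol from the 32285 features of the deposited matrices, and all 10 were found. Spatial expression had been measured on Visium slides, on which RNA of a tissue section is captured on an array of barcoded spots, in 3 libraries of mouse distal colon. The libraries were KO wound (mice labelled Hgfac KO, day 2 after wounding), WT wound (mice labelled Hgfac WT, day 2 after wounding) and WT intact (mice labelled Hgfac WT, unwounded colon). Hgfac encodes HGF activator, a protease that activates hepatocyte growth factor. Each group had 1 library, said by the labels to hold 3 biological replicates, and no label ties a spot to an animal. There was no library of intact colon from Hgfac KO mice among those analysed here, and the labels do not say how the knockout allele was built, the strain, the age or how the wounds were made. With 1 library per group no difference between groups could be tested: every interval below is a 95% interval for counting error only and says nothing about spread between mice.

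T cells recognise antigen through a receptor made of an alpha and a beta chain, or a gamma and a delta chain, held at the surface by the CD3 proteins that pass the signal inward. Cytotoxic T cells and natural killer cells carry granules with granzymes, proteases that kill the target cell. In the colon, T cells lie both in the lamina propria and between epithelial cells, and others gather with B cells in lymphoid follicles.

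The members of the receptor complex are encoded at 3 loci (RefSeq annotation, GRCm38). Cd3e (ENSMUSG00000032093) lies at chromosome 9, 44998735 to 45009663, Cd3d (ENSMUSG00000032094) at 44981769 to 44987052 and Cd3g (ENSMUSG00000002033) at 44969572 to 44980431 of the same chromosome. Cd3d and Cd3g are read in opposite directions from start sites 1338 bases apart. Trac (ENSMUSG00000076928), the constant region of the alpha chain, lies at chromosome 14, 54220521 to 54224198, inside the annotated Tcra locus, and Trbc2 (ENSMUSG00000076498), a constant region of the beta chain, at chromosome 6, 41546730 to 41548181, inside Tcrb. Trbc2 is nearly identical to its neighbour Trbc1, so the division of UMIs between them is uncertain. Cd8a (ENSMUSG00000053977) lies at chromosome 6, 71373427 to 71379171. Ccl5 (ENSMUSG00000035042) lies at chromosome 11, 83525778 to 83530518, where Gm32650 overlaps it. Gzma (ENSMUSG00000023132) lies at chromosome 13, 113093824 to 113100981, overlapping Cdc20b, and Gzmb (ENSMUSG00000015437) at chromosome 14, 56258836 to 56262334. Nkg7 (ENSMUSG00000004612), which encodes a granule membrane protein, lies at chromosome 7, 43437138 to 43438246.

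Promoter windows of 300 bases, from RefSeq annotation of GRCm38.p6, were found for 7 of the 10 members. The windows of the paired Cd3d and Cd3g genes and of Nkg7 are printed to show the sequences just ahead of 2 receptor genes that share 1 intergenic stretch and of a granule gene that was counted in all 3 libraries. Capitals mark matches to any of 3 motifs, searched on both strands with none overlapping another in these windows: TGGAAA (NFAT), TGTGGT (RUNX) and GAGGAAG (ETS).
Cd3d, chr9:44981536-44981835, plus strand: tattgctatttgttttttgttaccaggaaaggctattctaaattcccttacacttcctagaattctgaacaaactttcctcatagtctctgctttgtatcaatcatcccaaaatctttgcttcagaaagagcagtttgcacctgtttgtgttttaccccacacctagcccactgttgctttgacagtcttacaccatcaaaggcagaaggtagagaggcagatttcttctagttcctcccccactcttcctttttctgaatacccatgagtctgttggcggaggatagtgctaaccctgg
Cd3g, chr9:44980382-44980681, minus strand: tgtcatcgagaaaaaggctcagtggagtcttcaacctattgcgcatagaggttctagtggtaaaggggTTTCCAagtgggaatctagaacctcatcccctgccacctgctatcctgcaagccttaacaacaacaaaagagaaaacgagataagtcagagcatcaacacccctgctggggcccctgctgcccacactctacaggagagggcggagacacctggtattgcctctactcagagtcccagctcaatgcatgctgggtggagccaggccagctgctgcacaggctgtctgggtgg
Nkg7, chr7:43436888-43437187, plus strand: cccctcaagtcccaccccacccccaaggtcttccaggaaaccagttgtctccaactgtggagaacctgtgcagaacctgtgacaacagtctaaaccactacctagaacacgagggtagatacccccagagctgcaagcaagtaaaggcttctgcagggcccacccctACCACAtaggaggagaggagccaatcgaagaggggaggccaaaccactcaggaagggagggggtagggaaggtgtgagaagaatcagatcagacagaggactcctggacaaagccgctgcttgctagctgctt
The Cd3g window held TGGAAA, as did those of Cd3e and Gzma, and 21.4% of all 32851 windows held it. The Nkg7 window held TGTGGT, as did those of Gzma and Gzmb, and 16.8% of all windows held it. None of the 7 windows held GAGGAAG, which was in 13.6% of all windows. No match stood in the Cd3d window. These matches describe letters only.

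The members were rarely counted. The 10 genes together had 399 UMIs of 8930574 in KO wound, 569 of 11306771 in WT wound and 101 of 8180099 in WT intact, a UMI being 1 captured transcript molecule. On the scale used below, UMIs of a gene per 1000000 UMIs of the same spots (CPM), that was 44.7, 50.3 and 12.3 CPM. Values were also taken for the 3 tissue pieces that lie apart on each array, which are parts of 1 library and are not known to be single animals. WT wound piece 3 stood apart: it held 27 of that library's 31 follicle-rich spots, which are spots with at least 3 UMIs of 10 B cell genes, and KO wound and WT intact had 9 and 5 such spots. A list of 12 B cell and follicle genes reached 184 CPM in WT wound piece 3, and lay between 5.67 and 34.4 CPM in the other 8 pieces. Hgfac itself had 49.0 CPM in KO wound, against 94.8 CPM in WT wound and 76.6 CPM in WT intact. A 3' UMI checks a deletion only where it falls in the deleted part, which the labels do not give, so KO wound is used here as the name of the library labelled so. The 3 libraries share 130 spot barcodes, which are fixed places of the array design.

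WT wound was set against WT intact to ask which of these genes are counted more after wounding. A gene entered the comparison if both libraries together held 20 or more of its UMIs. It was counted as higher from a ratio of 2 upward and as lower from 0.5 downward. Of the 10 members 7 could be compared, and 6 of them were higher and 0 lower, where 4.51% of all 14010 genes compared were higher and 4.33% lower. Cd8a, Gzma and Gzmb had too few UMIs. A member reaches the minimum more easily where it is high in 1 library, so the values of all 10 are given below. The median log2 ratio was 1.69 over the 7 members and 0.08 over all genes. All WT wound pieces were above all WT intact pieces for 3 of these 7 members, and below for 0. Over all genes compared the shares were 14.8% above and 6.95% below. No such share was taken for KO wound pieces against WT intact pieces. Lists of other cells were higher in WT wound too. Of the B cell and follicle list 11 of 11 genes compared were higher, with a summed level of 64.3 CPM in WT wound and 11.002 CPM in WT intact, in pieces of 15.9 to 184 CPM and 5.67 to 14.7 CPM. Of the neutrophil list 4 of 5 were higher, and its pieces summed to 268 to 491 CPM in WT wound and 224 to 386 CPM in WT intact. The median log2 ratio over those 5 genes was 3.56, while the ratio of the list's sums was 1.28, so the sum does not follow most of its genes. Ly6g of this list was higher in epithelial than in stromal spots of both wound libraries, where S100a8, S100a9 and Csf3r were lower. Of the macrophage list 3 of 8 were higher, and its pieces summed to 772 to 864 CPM and 419 to 509 CPM. The part of these lists in the members' ratios was not tested. KO wound was then set against WT wound, to ask whether the genes differ between the genotypes after wounding. Of 7 members compared 0 were higher and 0 lower, where 1.40% of 13973 genes were higher and 1.55% lower. The pieces of KO wound and WT wound overlapped for all 10 members, where all KO wound pieces lay above for 5.70% of genes and below for 2.60%, and the median log2 ratio was −0.24 over the 7 members compared and 0.04 over all genes. The WT wound library enters both comparisons. In all of these ratios, fewer cells and less RNA per cell cannot be told apart.

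Cd3e, the epsilon chain of CD3, was counted as 23, 31 and 2 UMIs in KO wound, WT wound and WT intact. It had 2.24, 2.65 and 2.96 CPM in the KO wound pieces, 3.18, 0.987 and 4.43 CPM in the WT wound pieces and 0, 0.625 and 0 CPM in the WT intact pieces. As counted, every wound piece was above every intact piece, and the pieces of both wound libraries overlapped. The 0 counts of WT intact pieces 1 and 3 allow up to 1.40 and 1.06 CPM. WT wound piece 2, with 4 UMIs, was below both of these limits. WT wound over WT intact was 11.2 [2.85 to 96.7], with 2 UMIs in the intact library. Between the wounds, KO over WT was 0.939 [0.523 to 1.66]. Cd3d, the delta chain, had 32, 49 and 6 UMIs. Its pieces held 4.48, 3.41 and 2.59 CPM in KO wound, 2.69, 2.22 and 9.18 CPM in WT wound and 2.34, 0 and 0.355 CPM in WT intact. WT wound piece 2 was therefore below WT intact piece 1, which held 5 of the 6 intact UMIs. WT wound exceeded WT intact 5.91 times [2.53 to 16.9], 26.2 times without that intact piece. Leaving out WT wound piece 3 gave 3.35 times. The ratio of KO wound to WT wound was 0.827 [0.512 to 1.32], and 1.46 without WT wound piece 3. Cd3g, the gamma chain of CD3, had 19, 40 and 9 UMIs. It was at 2.80, 1.89 and 1.48 CPM in KO wound, at 3.42, 1.23 and 6.64 CPM in WT wound and at 0.467, 1.56 and 1.06 CPM in WT intact, so that 1 WT wound piece lay within the intact range. Against WT intact the ratio was 3.22 [1.54 to 7.54], and 2.12 without WT wound piece 3. KO wound stood at 0.601 times WT wound [0.329 to 1.06], and at 0.441 times without WT wound piece 2, which would count as lower.

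Trac had 35, 44 and 11 UMIs in KO wound, WT wound and WT intact. The pieces were at 5.04, 1.52 and 4.81 CPM in KO wound, 3.42, 1.97 and 6.96 CPM in WT wound and 1.87, 0.937 and 1.42 CPM in WT intact. All WT wound pieces were above all intact pieces, though piece 2 only just. WT wound exceeded WT intact 2.89 times [1.47 to 6.21]. For KO wound over WT wound it was 1.01 [0.627 to 1.61]. Trbc2 had 63, 81 and 33 UMIs, and was the 1 compared member that did not reach a ratio of 2. It was at 5.61, 5.68 and 10.4 CPM in the KO wound pieces, 4.15, 3.95 and 15.2 CPM in the WT wound pieces and 2.80, 4.996 and 3.90 CPM in the WT intact pieces. All KO wound pieces but, of the WT wound pieces, only piece 3 stood above the intact range, and WT wound over WT intact was 1.78 [1.17 to 2.75] with that piece and 1.004 without it, and 2.22 without WT wound piece 2. KO wound over WT wound was 0.985 [0.697 to 1.39] with it and 1.74 without it.

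The 5 receptor genes were summed to lessen the counting error. The sum had 172 UMIs in KO wound, 245 in WT wound and 61 in WT intact. It was 20.2, 15.2 and 22.2 CPM in the KO wound pieces, 16.9, 10.4 and 42.4 CPM in the WT wound pieces and 7.47, 8.12 and 6.74 CPM in the WT intact pieces. Every piece of either wound library was above the intact pieces, and WT wound piece 3 was above all others. WT wound over WT intact was 2.91 [2.19 to 3.91], and 1.83 without WT wound piece 3. KO wound over WT wound was 0.889 [0.727 to 1.08], but 1.41 with WT wound piece 3 left out and 0.688 with piece 2 left out, so its direction turned with the piece. Follicle-rich spots held 13, 39 and 5 of the UMIs of the 3 libraries. Without them WT wound piece 3 was still at 35.8 CPM, and its B cell list at 30.8 CPM. The share of spots with at least 1 of these UMIs was 21.3% in KO wound, 23.3% in WT wound and 8.76% in WT intact, with median spot depths of 13167.5, 14637.5 and 11416 UMIs. After thinning every spot to 5000 UMIs, which left out 37, 29 and 59 shallower spots, the shares were 9.72% [7.34 to 12.6], 11.0% [8.60 to 13.7] and 4.06% [2.43 to 6.35]. No class of spot that lacks T cells was at hand to set a background.

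**Figure D1:**
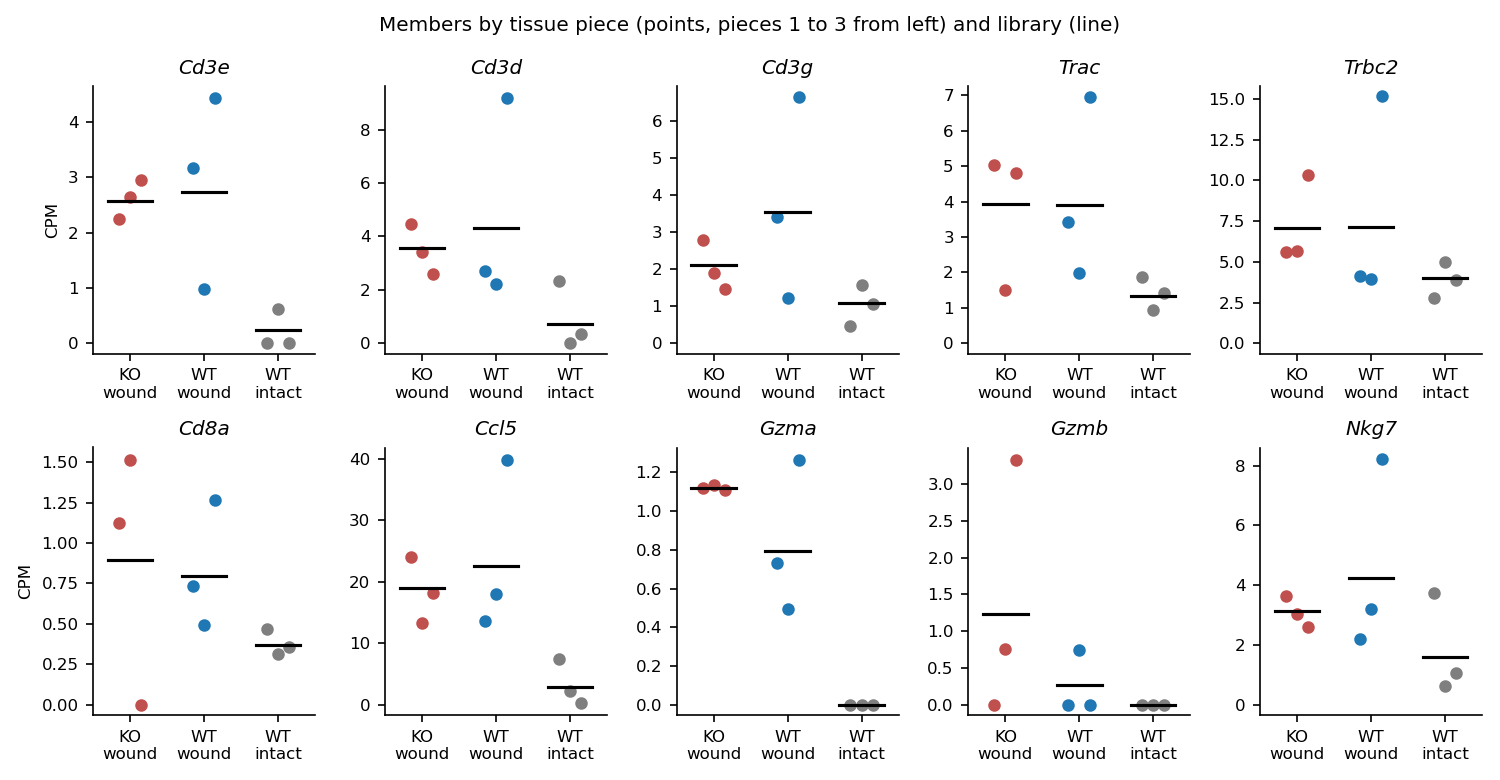
CPM of each member in the 3 tissue pieces (points, in the order of pieces 1 to 3) and in the whole library (black line) of KO wound, WT wound and WT intact; each panel has its own axis. WT wound piece 3 is the highest WT wound point for 9 of the 10 members, all but Gzmb, and Gzma and Gzmb are at 0 in all intact pieces.

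Cd8a, which encodes a chain of the co-receptor of cytotoxic T cells, had 8, 9 and 3 UMIs in KO wound, WT wound and WT intact, too few to compare. Its pieces had 1.12, 1.52 and 0 CPM in KO wound, 0.733, 0.494 and 1.27 CPM in WT wound and 0.467, 0.312 and 0.355 CPM in WT intact. These values rest on 0 to 4 UMIs a piece, and the ratio of WT wound over WT intact, 2.17, had an interval of 0.542 to 12.5. KO wound over WT wound was 1.13 [0.378 to 3.29].

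Ccl5, a chemokine made by activated T cells and natural killer cells among others, had the most UMIs of the 10 genes in both wound libraries. It had 170 UMIs in KO wound, 255 in WT wound and 24 in WT intact. The pieces were at 24.1, 13.3 and 18.1 CPM in KO wound, 13.7, 18.02 and 39.9 CPM in WT wound and 7.47, 2.19 and 0.355 CPM in WT intact. Every wound piece was above every intact piece. WT wound piece 3 held 126 of the 255 WT wound UMIs, and WT intact piece 1 held 16 of the 24 intact UMIs. WT wound over WT intact was 7.69 [5.05 to 12.2], 5.40 without WT wound piece 3 and 17.0 without WT intact piece 1. KO wound over WT wound was 0.844 [0.691 to 1.03], 1.202 without WT wound piece 3 and 0.601 where each spot had equal weight. Single spots carried part of this: 1 spot of WT wound piece 3 had 30 Ccl5 UMIs among its 11506, with 3 of Cd3d, 2 of Nkg7, 2 of Ccr7 and 1 of Trbc2, and none of the 10 B cell genes. The highest KO wound spot had 8 Ccl5 UMIs and the highest intact spot 3. The 2 highest spots of each library were left out in an alternative chosen after seeing the data, and WT wound over WT intact was then 7.82, and KO wound over WT wound was 0.956.

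Gzma and Gzmb, which encode granzymes A and B, had 0 UMIs in WT intact, where a count of 0 allows up to 0.367 CPM. Gzma had 10 UMIs in KO wound and 9 in WT wound. It was at 1.12, 1.14 and 1.11 CPM in the KO wound pieces and 0.733, 0.494 and 1.27 CPM in the WT wound pieces, with 2 to 4 UMIs in each. Set against the floor of 3 UMIs for the WT intact library, which leaves out the error of the 9 UMIs, Gzma was at least 2.17-fold higher in WT wound, and with that error the lower 95% limit was 1.43. Gzmb had 11 UMIs in KO wound and 3 in WT wound, too few to compare, with a ratio of 4.64 [1.23 to 25.9]. Its UMIs came from very few spots: 8 of the 11 in KO wound were on 1 wound-gene-rich stromal spot of piece 3, and all 3 in WT wound were on 1 such spot of piece 2. The KO wound spot had 43346 UMIs, among them 118 of the macrophage list, 129 of the neutrophil list, 3 of Klrd1, 4 of Ccl4, 1 of Cd3g and 0 of Ccl5. The WT wound spot had 19 Ccl5 UMIs, 2 of Prf1 and 1 each of Gzma, Nkg7, Klrd1 and Trbc2.

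Nkg7 had 28, 48 and 13 UMIs in KO wound, WT wound and WT intact. It was at 3.64, 3.03 and 2.59 CPM in the KO wound pieces, 2.20, 3.21 and 8.23 CPM in the WT wound pieces and 3.74, 0.625 and 1.06 CPM in the WT intact pieces. WT intact piece 1 exceeded 2 of the 3 WT wound pieces and all KO wound pieces. The ratio was 2.67 [1.42 to 5.37] for WT wound over WT intact, but 1.70 without WT wound piece 3, under the threshold, and 5.13 without WT intact piece 1. KO wound over WT wound was 0.739 [0.446 to 1.201].

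**Figure D2:**
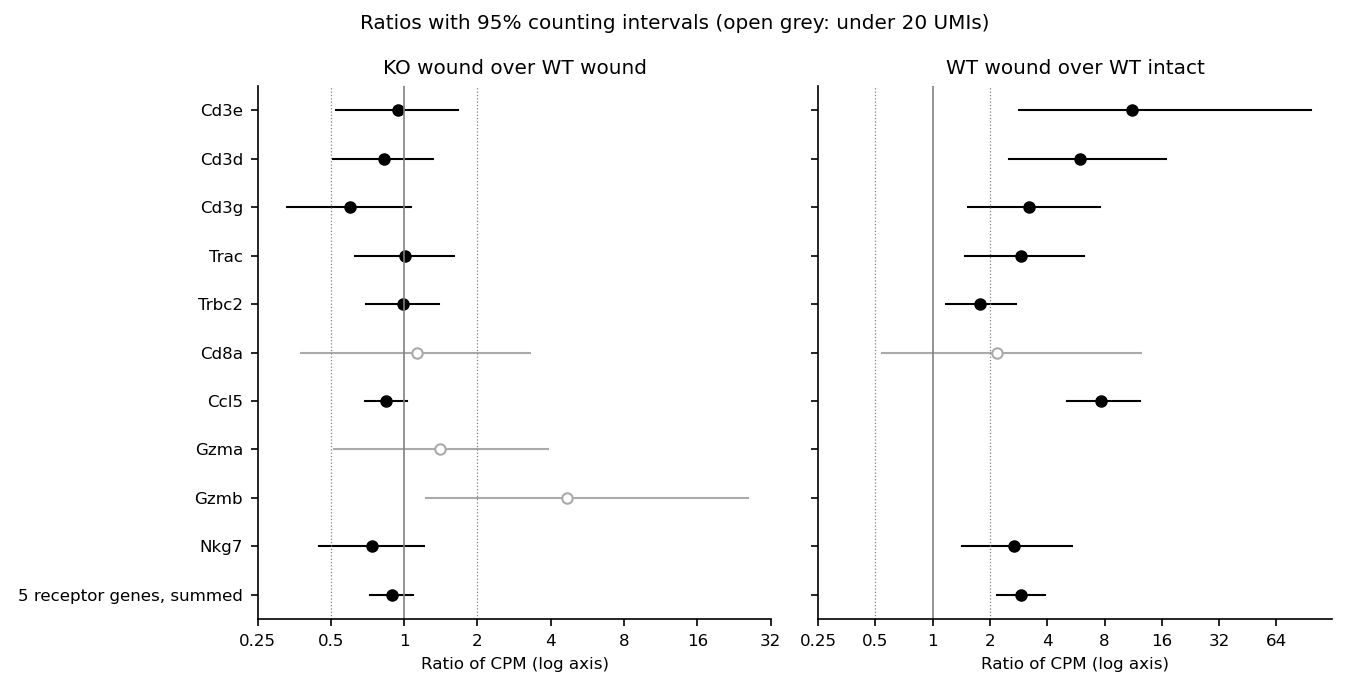
Ratio of CPM on a log axis with its 95% counting interval for KO wound over WT wound (left) and WT wound over WT intact (right); black points are members with at least 20 UMIs over both libraries, open grey points have fewer, and dotted lines mark 0.5 and 2. Members with 0 UMIs in WT intact, Gzma and Gzmb, have no point on the right. The receptor sum is at 0.889 on the left and 2.91 on the right.

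Epithelial and stromal spots were compared within each library to ask where in the tissue the genes are counted. A spot was called epithelial where its UMIs of 14 epithelial genes exceeded those of 14 smooth muscle and fibroblast genes, and stromal otherwise. This gave 387 epithelial and 185 stromal spots in KO wound, 354 and 286 in WT wound and 227 and 275 in WT intact. A spot holds several cells, so these are regions and not cell types, and the classes were not made to part epithelium from lamina propria. In KO wound, WT wound and WT intact, 5 plasma cell genes summed were 6.08, 2.63 and 5.80 times their stromal level in epithelial spots. The macrophage list was at 0.270, 0.458 and 0.881 times, and a list of 8 smooth muscle genes at 0.0390, 0.0387 and 0.0346 times. In KO wound 6 members could be compared, 0 were higher in epithelial spots and 0 lower, where 12.9% of all genes were higher and 22.1% lower. In WT wound 7 were compared, 0 higher and 0 lower, against 9.65% and 20.9% of all genes. In WT intact only 2 reached 20 UMIs: Ccl5 was higher and Trbc2 lower, where 10.8% of all genes were higher and 19.3% lower. Over all genes compared, 24.2% were higher in epithelial spots of every piece and 38.5% lower in KO wound, 24.5% and 38.8% in WT wound and 26.1% and 33.4% in WT intact.

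The receptor sum was 17.5 CPM in epithelial and 24.9 CPM in stromal spots of KO wound, a ratio of 0.703 [0.504 to 0.993]. By piece it was 20.7, 14.3 and 17.5 CPM in epithelial and 19.2, 19.8 and 44.2 CPM in stromal spots. In WT wound it was 20.1 CPM in epithelial and 25.5 CPM in stromal spots, a ratio of 0.787 [0.601 to 1.04]. Epithelial spots were above stromal spots in 1 piece of 3 in each of these libraries, and in 1 of 3 in WT intact, where the sums were 6.46 and 9.80 CPM, a ratio of 0.659 [0.384 to 1.15]. Receptor UMIs were therefore counted in both regions of every library. Trbc2 was below its stromal level in every KO wound piece, at 5.99 CPM in epithelial and 10.6 CPM in stromal spots, a ratio of 0.568 [0.330 to 1.0004]. In WT intact Trbc2 was at 2.97 CPM in epithelial and 6.53 CPM in stromal spots, a ratio of 0.454 [0.216 to 0.960] from 17 and 16 UMIs. That call ended with equal weight per spot (0.812), after thinning (0.764), without follicle-rich spots (0.546), without mixed spots (0.728) and without WT intact piece 2 (0.546). After thinning and without piece 2 fewer UMIs than the minimum of 20 were left. The Cd3d ratio in KO wound turned with 1 piece: it was 0.914 [0.397 to 2.35], 0.254 without piece 1 and 4.01 without piece 3. Without piece 1 fewer UMIs than the minimum of 20 were left, and pieces 1 and 2 held 1 stromal UMI each.

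Spots that held both kinds of tissue, with between 1/3 and 2/3 of their epithelial and stromal list UMIs epithelial, were looked at separately. In KO wound they had 17.5 CPM of the receptor sum [9.04 to 30.5], against 17.4 CPM where the epithelial share was over 2/3 and 26.6 CPM where it was under 1/3. In WT wound the same 3 values were 39.4 [29.9 to 51.1], 18.1 and 22.3 CPM. In WT intact they were 17.0 [10.3 to 26.6], 6.07 and 5.58 CPM, so the mixed spots were highest in both WT libraries and not in KO wound. No values by piece are given for these spots. WT wound piece 3 held 134 of the 245 receptor UMIs of WT wound and 27 of that library's 31 follicle-rich spots. The part of that piece in this pattern, and the difference between libraries, were not tested.

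Ccl5 was at 18.8 CPM in epithelial and 19.7 CPM in stromal spots of KO wound, a ratio of 0.958 [0.670 to 1.40]. By piece it was 27.0, 13.9 and 15.3 CPM in epithelial and 18.3, 9.91 and 31.6 CPM in stromal spots, so 2 pieces had more in epithelial spots and 1 more in stromal spots. In WT wound it was at 19.5 CPM in epithelial and 30.2 CPM in stromal spots, a ratio of 0.646 [0.499 to 0.840], but 1.202 where each spot had equal weight. All 3 WT wound pieces had less in epithelial spots, with 13.6, 13.6 and 36.9 CPM against 13.9, 31.9 and 45.2 CPM in stromal spots. In WT intact Ccl5 was at 3.49 CPM in epithelial and 1.63 CPM in stromal spots, from 20 and 4 UMIs, a ratio of 2.14 [0.716 to 8.60]. It was 7.77 without WT intact piece 2 and 0.852 without piece 1, which held 15 of the 20 epithelial UMIs, and 1.61 without the 2 highest Ccl5 spots. Each of these values rests on fewer UMIs than the minimum of 20.

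The 3 granule genes Gzma, Gzmb and Nkg7 were summed as well. They were at 3.65 CPM in epithelial and 11.5 CPM in stromal spots of KO wound, from 25 and 24 UMIs, a ratio of 0.317 [0.174 to 0.580], and epithelial spots were higher in 1 piece of 3. In WT wound they were at 3.97 and 8.62 CPM, from 32 and 28 UMIs, a ratio of 0.461 [0.269 to 0.795], again with 1 piece of 3 the other way. Gzmb had 3 UMIs in epithelial and 8 in stromal spots of KO wound and 0 and 3 in WT wound, and the stromal ones were those on the single spots described above. Without that spot of each library, an alternative chosen after seeing the data, the ratio was 0.466 [0.239 to 0.934] in KO wound and 0.559 [0.317 to 1.00002] in WT wound, so that the interval of WT wound reached 1. In WT intact the sum held 10 and 3 UMIs, all of Nkg7. Gzma had 3 UMIs in epithelial and 7 in stromal spots of KO wound, and 4 and 5 in WT wound. Nkg7, the member of this group with enough UMIs to compare by itself, was at 2.78 CPM in epithelial and 4.32 CPM in stromal spots of KO wound and at 3.48 and 6.15 CPM in WT wound, with intervals of both ratios that include 1.

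**Figure D3:**
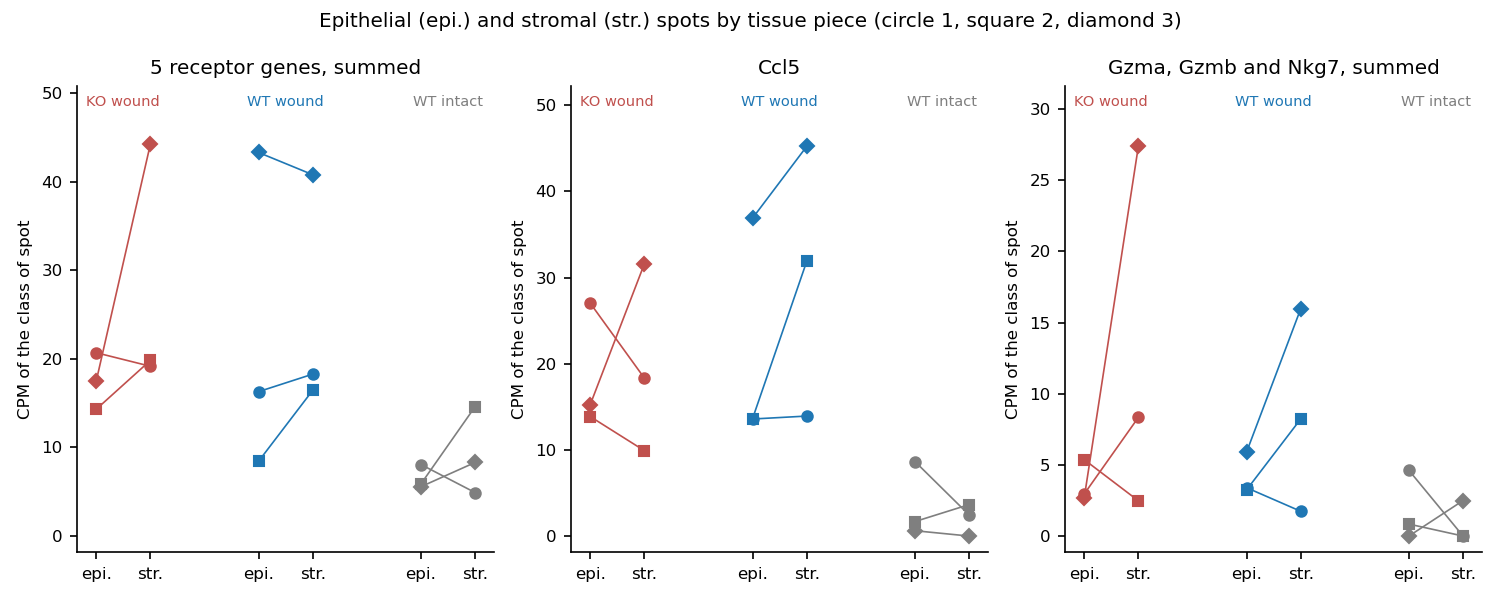
CPM of the 5 receptor genes summed, of Ccl5 and of Gzma, Gzmb and Nkg7 summed, in epithelial and stromal spots of each tissue piece of KO wound, WT wound and WT intact; a line joins both classes of 1 piece. The slopes differ in direction between pieces in most panels, and all 3 WT wound pieces have less Ccl5 in epithelial spots.

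Wound-gene-rich spots, the 10% of spots of a wound library with the highest share of UMIs of 10 wound-bed genes such as Arg1, Spp1 and Il1b, were set against the other spots. They numbered 57 in KO wound and 64 in WT wound, of which 17 and 8 were epithelial. The list itself reached 4439 CPM there in KO wound and 1104 CPM in WT wound, so the class does not mark the same level of wound genes in both. In KO wound 6 members were compared and 3 were higher (Cd3e, Trac and Trbc2), where 13.7% of all genes were higher and 9.19% lower, and 0 members were lower. In WT wound 7 were compared and 3 were higher (Trac, Ccl5 and Nkg7), where 15.9% of all genes were higher and 7.28% lower, and 0 members were lower. The share of all genes higher in every piece was not taken for these spots, so the values by piece below have no background.

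The receptor sum was 42.9 CPM in wound-gene-rich spots of KO wound and 17.0 CPM in its other spots, from 34 and 138 UMIs, a ratio of 2.53 [1.68 to 3.70]. The pieces had 58.1, 41.0 and 41.9 CPM in wound-gene-rich and 19.4, 10.7 and 19.4 CPM in other spots, so all 3 were higher. In WT wound it was 34.0 and 20.5 CPM, a ratio of 1.65 [1.103 to 2.41], with 24.1, 32.5 and 55.5 CPM in wound-gene-rich and 16.1, 8.15 and 41.5 CPM in other spots of the pieces. Trbc2 was higher in KO wound, at 20.2 CPM in wound-gene-rich and 5.78 CPM in other spots, a ratio of 3.49 [1.85 to 6.27]. Cd3e was 2.16 times higher there and Trac 2.12 times, from 4 and 6 UMIs, with intervals that include 1. Without piece 1 Cd3e was at 1.60, and without piece 3 Trac was at 1.26, both under the threshold. The Cd3e value rests on fewer UMIs than the minimum of 20. In WT wound Trac was at 8.50 CPM in wound-gene-rich and 3.47 CPM in other spots, a ratio of 2.45 [0.983 to 5.35], and at 1.46 without piece 2. The macrophage list was higher in the same spots, at 1949 CPM against 919.9 CPM elsewhere in KO wound and at 1811 CPM against 728.2 CPM elsewhere in WT wound. Its part in these results was not tested.

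Ccl5 was on opposite sides of 1 in the libraries, a difference that was not tested. In KO wound Ccl5 was 11.3 CPM in wound-gene-rich and 19.8 CPM in other spots, from 9 and 161 UMIs, a ratio of 0.574 [0.258 to 1.12]. Its pieces had 29.1, 10.3 and 8.97 CPM in wound-gene-rich and 24.0, 13.8 and 19.4 CPM in other spots. In WT wound it was 64.8 CPM in wound-gene-rich and 18.7 CPM in other spots, from 61 and 194 UMIs, a ratio of 3.46 [2.55 to 4.64]. The pieces had 26.8, 75.8 and 116 CPM in wound-gene-rich and 12.4, 12.2 and 34.8 CPM in other spots, all 3 higher. The ratio was 1.90 where each spot had equal weight, under the threshold, and 2.86 without the 2 highest Ccl5 spots. Within wound-gene-rich spots, KO wound over WT wound was 0.175 [0.0765 to 0.355] for Ccl5 and 1.26 [0.755 to 2.11] for the receptor sum. In the stromal spots of the class alone, 40 in KO wound and 56 in WT wound, the Ccl5 ratio was 0.281 [0.121 to 0.577]. Nkg7 had 0 of its 28 UMIs in the wound-gene-rich spots of KO wound, a count that allows up to 3 UMIs. Those spots held 793053 of the 8930574 UMIs of KO wound, and the Nkg7 ratio of 0 had an interval of 0 to 1.44. Of its 48 UMIs in WT wound 8 were in wound-gene-rich spots. There its ratio of 2.20 [0.890 to 4.77] was 1.34 with equal weight per spot and 1.95 without piece 2. These last ratios between libraries were chosen after seeing the data, and rest on 1 library each.

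Spots were then grouped by steps on the array to the nearest wound-gene-rich spot of the same piece, a split also chosen after seeing the data. In KO wound Ccl5 was 11.3 CPM at 0 steps, 21.7 at 1 to 2, 19.997 at 3 to 5 and 18.7 beyond 5. In WT wound it was 64.8, 30.6, 18.2 and 9.06 CPM in the same order, lower at each distance than at the one before. The receptor sum was 42.9, 21.1, 19.0 and 13.2 CPM in KO wound and 34.0, 22.8, 15.2 and 24.8 CPM in WT wound, highest at 0 steps in both. The share of epithelial spots moved along with distance, being 29.8, 56.9, 73.7 and 80.7% in KO wound and 12.5, 37.5, 59.8 and 87.5% in WT wound.

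**Figure D4:**
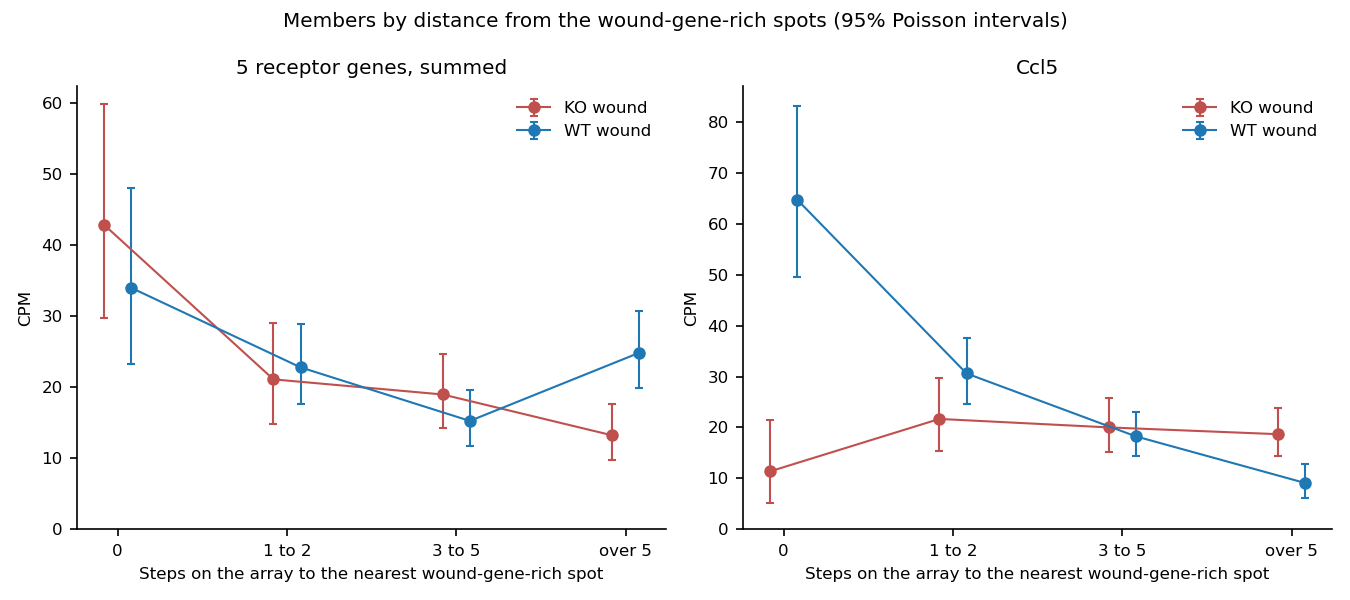
CPM of the 5 receptor genes summed (left) and of Ccl5 (right) by steps on the array to the nearest wound-gene-rich spot of the same piece, for KO wound and WT wound; bars are 95% Poisson intervals of the counts. In KO wound Ccl5 lies between 11.3 and 21.7 CPM throughout, and in WT wound it is at 64.8 CPM at 0 steps and 9.06 CPM beyond 5.

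Spots shared between members were described next. Spots with at least 1 receptor UMI numbered 122 in KO wound, 149 in WT wound and 44 in WT intact. Ccl5 was at 38.7 CPM on them and 11.7 CPM on spots without receptor UMIs in KO wound, at 49.6 and 13.3 CPM in WT wound and at 8.99 and 2.09 CPM in WT intact. Spots with receptor UMIs were deeper, with medians of 16610.5 against 12261 UMIs in KO wound, 17105 against 14259 in WT wound and 17726.5 against 10949.5 in WT intact. Nkg7 was at 4.94 CPM on spots with receptor UMIs and 2.46 CPM on those without in KO wound, at 8.33 and 2.85 CPM in WT wound and at 3.997 and 1.25 CPM in WT intact. Gzma was at 1.23 and 1.08 CPM in KO wound and at 1.73 and 0.475 CPM in WT wound, from 3 and 7 UMIs and from 5 and 4. A Ccl5 UMI was also present on 6 of 10 Gzma spots in KO wound and 3 of 8 in WT wound, and on 11 of 21, 19 of 39 and 3 of 11 Nkg7 spots in KO wound, WT wound and WT intact. Of all spots of these libraries 15.4, 19.4 and 4.18% held Ccl5. Cd3e shared 0 of its 22 spots with Cd3g in KO wound and 4 of 28 in WT wound, where 3.32% and 4.69% of all spots held Cd3g. The 2 Cd3e spots in WT intact held no other member. These counts are too few to show whether Cd3e and Cd3g share spots more or less than other genes.

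Other lymphocyte genes were described from lists chosen with earlier results of these data known, each read against the background shares given above. Of 16 further cytotoxic and natural killer genes, 5 could be compared between WT wound and WT intact and all 5 were higher, with every WT wound piece above every intact piece, as 14.8% of all genes were (6.95% had every WT wound piece below). Among them Xcl1, a chemokine, was 9.89 times higher [3.15 to 49.9], Il2rb, a chain of the interleukin 2 receptor, 6.41 times [2.93 to 16.6], Ctsw, a protease of cytotoxic cells, 4.63 times [1.79 to 15.2] and Klrd1, the receptor chain CD94, 3.55 times [1.77 to 7.85]. All 5 reached the minimum through WT wound, with 3 to 10 UMIs each in WT intact. Genes of this list under the minimum included Klrb1c (13 and 5 UMIs), Prf1 (4 and 0), Ncr1 (4 and 3), Klrg1 (3 and 4) and Eomes (0 and 1). Of 20 further T cell receptor and signalling genes 9 were compared and 2 were higher, Cd7 at 6.82 times [3.13 to 17.6] and Trbc1 at 2.03 times [1.197 to 3.56]. Of 14 genes of intraepithelial lymphocytes and their epithelial ligands 8 were compared and 3 were higher. These were Itgae, the integrin that binds epithelial E-cadherin, at 3.98 times [1.35 to 15.9], Runx3 at 3.51 times [1.53 to 9.39] and Cd244a at 2.89 times [0.934 to 11.9]. Of 14 naive, memory and regulatory T cell genes 9 were compared and 4 were higher, among them Ccr7, a homing receptor of naive cells, at 2.65 times [1.24 to 6.30]. Of the genes for recruiting chemokines and their receptors 14 were compared and 6 were higher, with Ccl19 at 16.9 times [5.54 to 83.8] and Cxcl9 at 18.8 times [3.09 to 771], the second against 1 UMI. No gene compared from these 5 lists was lower, and a gene reaches the minimum more easily where it is high in 1 library.

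Between KO wound and WT wound, 0 of 6 cytotoxic genes and 0 of 9 intraepithelial genes compared were higher or lower. Of 11 receptor and signalling genes 2 were higher in KO wound, Trdc, the constant region of the delta chain, at 2.67 times [1.15 to 6.71] and Lat, an adaptor of receptor signalling, at 2.53 times [1.22 to 5.56]. Of 8 naive and regulatory genes 2 were higher, among them Tnfrsf4, a costimulatory receptor, at 2.53 times [1.32 to 5.06]. Of 7 neutrophil genes compared 6 were higher in KO wound, and their part in these results was not tested. Of 16 recruitment genes 2 were higher, among them the chemokine Ccl4 at 4.11 times [1.81 to 10.5]. The 1 lower gene was Cxcl9, at 0.390 times [0.152 to 0.886]. Trdc, Lat, Tnfrsf4 and Ccl4 had 9, 12, 15 and 8 UMIs in WT wound, each under the minimum. They were therefore compared only through their UMIs in KO wound. Cxcl9 had 26 UMIs in WT wound and reached the minimum there. A gene reaches the minimum more easily where it is high in 1 library. Of 11 B cell and follicle genes 7 were lower in KO wound, the list being the one that reached 184 CPM in WT wound piece 3.

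The genes most like the members were sought over 18 sums, epithelial and stromal spots of each of the 9 pieces, among 11809 genes with at least 100 UMIs, by Pearson correlation of log2(CPM + 1). For the receptor sum they were led by Tap1 (r = 0.927), a peptide transporter of antigen presentation, Wdfy4 (0.878), Pip5k1a (0.848) and Otulinl (0.847). For Ccl5, Gzma, Gzmb and Nkg7 summed they included Tnfrsf13b (0.894), Otulinl (0.880) and Hvcn1 (0.878), with Tap1 at 0.871, Cd7 at 0.870 and Klrd1 at 0.868. The 18 sums share libraries, depth and pieces, so these values are a description.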

How the data were processed

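Each of the 3 groups had 1 Visium library of mouse distal colon. The deposited values are raw UMI counts per gene and tissue spot, written by Space Ranger 1.2.1 per the file headers. The submitters' processing notes name mm10 as the build. Array places of spots came from the deposited position tables. Counting settings: not given in the sources used here.

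UMIs were summed over spots of a library, piece or class and scaled to CPM. Pieces are connected groups of at least 20 neighbouring spots. 3 spots of KO wound, 0 of WT wound and 5 of WT intact lay outside them. Counts of single sums have exact Poisson intervals, ratios exact conditional binomial intervals and shares of spots exact binomial (Clopper-Pearson) intervals, all at 95%. Genes with at least 20 UMIs over both sides were compared. A spot was follicle-rich with at least 3 UMIs over 10 B cell genes. All members are named, and from each other list up to 4 genes per direction, ranked by the interval bound nearest to 1, and some of these are not reported here. The members and lists were chosen with earlier results of these data known. The alternatives were TMM scaling, totals without mitochondrial, ribosomal-protein and immunoglobulin genes, equal weight per spot, thinning, other minima, folds and spot classes, and leaving out pieces. Python 3.11.15, scipy 1.17.1 and edgeR 4.0.16 (TMM only) were used, and the ratio and interval step was tested on simulated data. Proteins, histology images and reads were not used here.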

Additional observations from a re-analysis of the deposited data

Results flagged for a closer look

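For Ccl5, ratios between classes of spot differed in size among the 3 libraries. Its ratio of wound-gene-rich over other spots was 0.574 [0.258 to 1.12] in KO wound and 3.46 [2.55 to 4.64] in WT wound, on opposite sides of 1. The WT wound ratio fell under the threshold with equal weight per spot. Its ratio of epithelial over stromal spots was 0.958 [0.670 to 1.40] in KO wound, 0.646 [0.499 to 0.840] in WT wound and 2.14 [0.716 to 8.60] in WT intact. These intervals overlap. With equal weight per spot the WT wound ratio was above 1, and without piece 1 the WT intact ratio was 0.852. The difference between libraries was not tested in either case, since each group had 1 library, and the WT intact ratio rests on 24 UMIs.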

How the results depend on the processing

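No paired analysis was possible because each group had 1 library. Of 182 recomputed counts of called members 138 stayed within 1.5 times, and of 475 recomputed ratios of single members or the receptor sum 449 stayed within the counting interval and 25 moved. The 1 ratio past the threshold (2 or 0.5) whose direction turned was Ccl5 in epithelial over stromal spots of WT intact, 0.852 without WT intact piece 1 and 7.77 without piece 2. Both of these values rest on fewer UMIs than the minimum of 20. Ratios that did not pass it also crossed 1, among them the receptor sum, Trbc2, Cd3d and Ccl5 for KO wound over WT wound. Thinning to 5000 UMIs left 2 members higher of 3 compared for WT wound over WT intact. For KO wound over WT wound, a minimum of 10 UMIs made 1 member higher, and a fold of 1.5 made 1 lower. For epithelial over stromal spots in KO wound, 2 were lower with a minimum of 10 UMIs and 2 with a fold of 1.5. In WT wound 4 were lower with a fold of 1.5, 2 with mixed spots left out and 3 with lists divided by their mean, and 1 was higher with the smooth muscle list in place of the stromal list. In WT intact 0 were lower with equal weight per spot, without follicle-rich spots or with mixed spots left out, 0 were higher with lists divided by their mean or without the 2 highest Ccl5 spots (chosen after seeing the data), and none could be compared after thinning or at 50 UMIs, giving 0 and 0. For wound-gene-rich spots in KO wound, 1 was higher after thinning, without follicle-rich spots, at a minimum of 50 UMIs or with the highest 20% of spots, and 6 with a minimum of 10 UMIs, while 1 was lower without follicle-rich spots or with a fold of 1.5. In WT wound 1 was higher with equal weight per spot, after thinning or at 50 UMIs, and 5 with a fold of 1.5. Leaving out 1 piece at a time gave 4 to 7 members higher for WT wound over WT intact, 0 to 1 lower for KO wound over WT wound, 0 to 1 higher and 0 to 1 lower for epithelial spots in KO wound, 0 to 1 lower in WT wound, 0 to 0 higher and 0 to 1 lower in WT intact, and 1 to 3 and 1 to 5 higher for wound-gene-rich spots in KO wound and WT wound. The causes were not tested. Counting error limits all of these values, since most members have under 100 UMIs per library.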

Other observations

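Trbc1, the constant region of the beta chain next to Trbc2, had part of its UMIs on single spots. It had 67 UMIs on 39 spots in KO wound, 56 on 37 in WT wound and 20 on 15 in WT intact. In KO wound 20 of the 67 lay on 1 wound-gene-rich epithelial spot of piece 3, which had 74540 UMIs in all, 2 of Trbc2, 0 of Cd3e, Cd3d, Cd3g and Trac and 0 of Ccl5. In WT wound 8 of the 56 lay on 1 wound-gene-rich epithelial spot of piece 1, with 2 of Trbc2 and 0 of the other receptor genes. Without those spots 18 of 47 Trbc1 UMIs in KO wound and 5 of 48 in WT wound lay on wound-gene-rich spots. The Trbc1 spots were noticed after seeing the data, and no test was made.

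Btnl4 and Btnl1, which in mouse encode epithelial butyrophilin-like proteins that bind gamma delta T cells, were higher in epithelial than in stromal spots. Of their intraepithelial list 3 of 6 genes compared were higher and 1, Runx3, lower in KO wound. In WT wound 3 of 7 were higher and in WT intact 3 of 4, with 0 lower in both. Hopx of this list was below its stromal level in each library. Of all genes compared, 12.9, 9.65 and 10.8% were higher in KO wound, WT wound and WT intact, and 22.1, 20.9 and 19.3% lower. The Btnl4 ratio was 12.9 [3.47 to 108.6] in KO wound, 9.68 [3.66 to 36.2] in WT wound and 2.82 [1.44 to 6.15] in WT intact. In wound-gene-rich spots Btnl4 had 3 of 87 UMIs in KO wound and 0 of 100 in WT wound. Il18, an epithelial interleukin, was 6.75 times [5.44 to 8.48], 4.82 times [4.12 to 5.68] and 4.99 times [4.25 to 5.88] higher in epithelial spots of KO wound, WT wound and WT intact. It belongs to the recruitment list, of which 2 of 13 genes compared were higher and 9 lower in KO wound. In WT wound 3 of 13 were higher and 5 lower, and in WT intact 3 of 9 were higher and 1 lower.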
